A study of Homo sapiens with 4 samples.

Results

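Amino acid transporters of the plasma membrane were followed in K562 cells transfected with RUNX1::ERG. The 10 genes SLC7A11, SLC7A5, SLC3A2, SLC1A5, SLC38A1, SLC38A2, SLC6A9, SLC7A1, SLC7A3 and SLC43A1 were taken by name from the 25702 genes of the count table, and all 10 were found. K562 is a human line of erythroid character that was derived from chronic myeloid leukemia. The cells were nucleofected with the LeGO-iG2 plasmid carrying RUNX1::ERG, a fusion with the DNA-binding domains of RUNX1 and ERG, or with LeGO-iG2 without an insert (empty vector). The vector also expresses green fluorescent protein, and the cells received no other treatment. Poly(A)-enriched RNA of 2 biological replicates per group was sequenced. The sources used here do not state whether transfected cells were sorted before RNA extraction, so untransfected cells may be part of every library.

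Amino acid transporters set which building blocks a cell can take up, and many of them are exchangers that release one amino acid to bring in another. SLC3A2 is a glycoprotein heavy chain that brings light chains such as SLC7A5 and SLC7A11 to the cell surface. Transcription of several of these genes is raised when amino acids run short, through the kinase GCN2 and the factor ATF4, which binds C/EBP-ATF response elements. In erythroid cells, glycine taken up by SLC6A9 feeds heme synthesis.

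The counts summed to between 59695387 and 82352144 per library. Counts of ERG were 4 for either empty vector library, and with RUNX1::ERG they were 80443 for replicate 1 and 27218 for replicate 2, as the labels say. RUNX1 likewise went from 78.6 and 49 to 785 and 400 normalized CPM (counts scaled to the library total by TMM). All 10 erythroid markers listed for K562 were measured, and their summed level was 11950 and 12581 normalized CPM with the empty vector and 14153 and 13047 with RUNX1::ERG. Most of this sum was HBE1, an embryonic globin, at 6393 to 8410. EPOR, the erythropoietin receptor, was the 1 marker of the list called, and it rose from 41.6 in each empty vector library to 89.1 and 62.8, while HBZ, another embryonic globin, was at 966 and 1100 and then 753 and 615 (adjusted p = 0.05003 by edgeR). Of 8 tested megakaryocytic markers, 6 rose with RUNX1::ERG, namely ITGA2B, ITGB3, PF4, PPBP, TUBB1 and VWF, while GP1BA and GP6 were not called. ITGA2B went from 12 and 8.92 to 229 and 161 normalized CPM, and PPBP from 2 and 6 counts to 1553 and 1462. Summed over the list of 13, the level went from 106 and 107 to 537 and 467 normalized CPM. Among the untested markers, GP1BB and GP9 had at most 2 counts in a library. In a list of 10 lymphoid and monocytic markers, CD14 and LYZ rose among 6 tested, and the summed level was between 43.5 and 47 in all 4 libraries. LYZ went from 6.97 and 9.9 to 18.1 and 18.7 normalized CPM, and CD3D, which was not called (adjusted p = 0.0899 by edgeR), was at 32.5 and 34.7 with the empty vector and 20.5 and 23.5 with RUNX1::ERG. The part of these changes in the transporter results was not tested. In RNA from a whole culture, fewer cells of a type and less RNA per cell cannot be told apart.

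The empty vector libraries differed from each other in the genes of interest. All 9 transporters with more than a few counts were higher in replicate 1 than in replicate 2, from 1.24-fold for SLC1A5 to 6.08-fold for SLC7A11, and 5 of them were at least 2-fold higher, against 7.85% of the 15394 tested genes. Every comparison between the groups was therefore also made without empty vector replicate 1, in a fit where that group has 1 library, which is assumed to vary like the RUNX1::ERG libraries. The transporters were chosen with earlier results of these data known, so their shares beside all tested genes are descriptive.

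With all 4 libraries, 9 of the 10 transporters passed the filter on low counts, and the fitted level of each of the 9 was lower with RUNX1::ERG. SLC7A5, SLC43A1, SLC6A9, SLC7A1 and SLC1A5 fell, and none rose, at the threshold of 0.05 on the adjusted p of edgeR (quasi-likelihood test). Among all tested genes, 1.15% were called lower and 3.64% higher. The median log2 fold change of the 9 was -1.01, against -0.00167 over all tested genes. In 7 of the 9 the higher RUNX1::ERG library was below the lower empty vector library, against 22.1% of all tested genes. Without empty vector replicate 1, SLC7A5 alone was called lower, the median of the 9 was -0.44, and 1.91% of all genes tested were called lower in that fit. The fits without RUNX1::ERG replicate 1 or 2 each take their spread from the empty vector libraries alone. Without replicate 1 the log2 fold change was -1.32 for SLC7A5, -1.99 for SLC6A9, -1.12 for SLC43A1, -0.84 for SLC7A1 and -0.62 for SLC1A5. In the same order, leaving out RUNX1::ERG replicate 2 gave -1.49, -1.99, -1.39, -1.21 and -0.6. Which of the transporters were called differed between these fits. With library totals in place of TMM, SLC6A9, SLC43A1, SLC7A1 and SLC1A5 had adjusted p-values of 0.0586 to 0.0796 by edgeR.

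**Figure D1:**
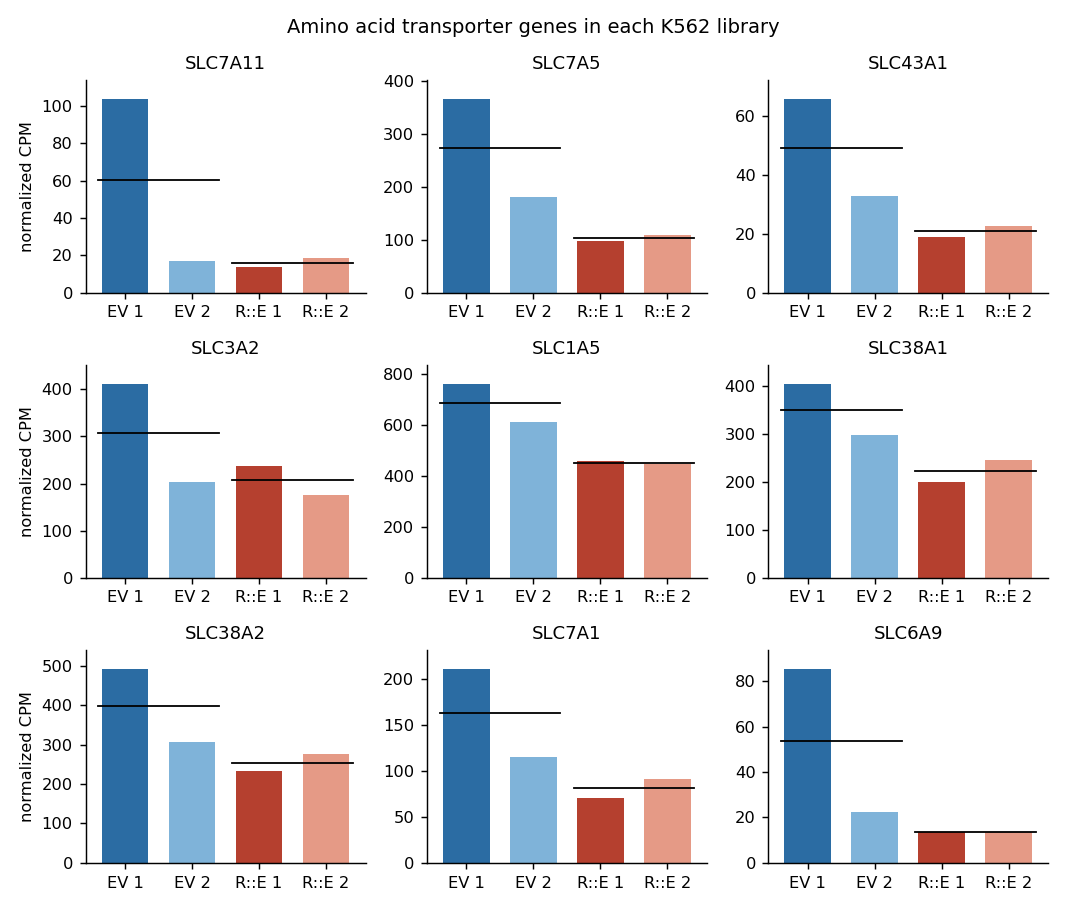
Normalized CPM of the 9 expressed transporters in empty vector (EV) replicates 1 and 2 and RUNX1::ERG (R::E) replicates 1 and 2, with a separate axis for each gene. Each bar is 1 library and each black line the mean of a group. Empty vector replicate 1 is the highest bar in all 9 panels, and SLC7A11 stood at 104 there against 13.8 to 18.3 in the other libraries.

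SLC7A5 (LAT1; NCBI gene 8140, minus strand of chromosome 16 of GRCh37, 87863629 to 87903113) exchanges large neutral amino acids such as leucine and is the main light chain of SLC3A2 in dividing cells. It stood at 366 and 180 normalized CPM in empty vector replicates 1 and 2 and at 97.7 and 109 in RUNX1::ERG replicates 1 and 2. Both fusion libraries lay below both empty vector libraries, and they were close to each other. The fitted log2 fold change was -1.4 (standard error 0.27, edgeR adjusted p = 0.0157), with a 95% interval from -2 to -0.8. Without empty vector replicate 1 it was -0.8 (adjusted p = 0.00607 by edgeR), and the call held under each alternative that was run. SLC7A5P1 and SLC7A5P2, copies with much less exon sequence than SLC7A5, were counted separately, at 3 to 10.4 normalized CPM in each library. How reads shared with them were assigned is not given in the sources used here.

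SLC43A1 (LAT3; NCBI gene 8501, minus strand of chromosome 11, 57252007 to 57283253) also carries leucine and other large neutral amino acids, by facilitated diffusion and without a heavy chain. Its level was 65.8 and 32.8 normalized CPM with the empty vector and 19 and 22.6 with RUNX1::ERG. The groups did not overlap, and the log2 fold change was -1.24 with a standard error of 0.28 (adjusted p = 0.0334 by edgeR). Without empty vector replicate 1 it was -0.66 and the call was lost (adjusted p = 0.0676). SLC43A1 followed SLC7A5 closely over the libraries. Per kilobase of exon, SLC7A5 was 4.12 and 4.05 times SLC43A1 in the empty vector libraries and 3.81 and 3.58 times in the RUNX1::ERG libraries.

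SLC3A2 (4F2hc, the heavy chain of CD98; NCBI gene 6520, plus strand of chromosome 11, 62623476 to 62656352) was at 411 and 202 normalized CPM in the empty vector libraries and at 237 and 177 with RUNX1::ERG, so that RUNX1::ERG replicate 1 lay above empty vector replicate 2. The log2 fold change was -0.57 with a 95% interval from -1.18 to 0.05 and was not called (adjusted p = 0.322 by edgeR). Leaving out empty vector replicate 1 gave 0.03. The level of SLC7A5 per kilobase of exon was 1.19 times that of SLC3A2 in each empty vector library, and 0.55 and 0.83 times in RUNX1::ERG replicates 1 and 2. The groups did not overlap in this ratio, but an exact permutation test of 2 against 2 libraries cannot give a p below 0.333.

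SLC7A11 (xCT; NCBI gene 23657, minus strand of chromosome 4, 139085251 to 139163503) exports glutamate in exchange for cystine, which supplies cysteine for glutathione. It had 6240 counts in empty vector replicate 1 and 1202 in replicate 2, and 1163 and 1317 with RUNX1::ERG. In normalized CPM these were 104, 17, 13.8 and 18.3. Empty vector replicate 1 stood alone, while replicate 2 lay between the RUNX1::ERG libraries. The log2 fold change of -1.91 had a standard error of 0.58 and was not called (adjusted p = 0.0981 by edgeR). It was -0.09 without empty vector replicate 1 (adjusted p = 0.912 by edgeR). The antisense gene SLC7A11-AS1, which overlaps it, had at most 50 counts in a library.

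SLC6A9 (GlyT1; NCBI gene 6536, minus strand of chromosome 1, 44457172 to 44497139) takes up glycine together with sodium and chloride. Its level was 85.2 and 22.5 normalized CPM with the empty vector and 13.6 in each RUNX1::ERG library, the smallest spread of any transporter within that group. The log2 fold change was the largest fall of the 9 with all 4 libraries, at -1.99 (standard error 0.45, adjusted p = 0.0342 by edgeR). With empty vector replicate 1 left out it was -0.73 and lay just outside the threshold (adjusted p = 0.0528 by edgeR). The DESeq2 Wald test did not call it either (adjusted p = 0.148). CCDC24, a gene on the opposite strand that shares exon sequence with SLC6A9, stood at 2.77 and 3.44 normalized CPM with the empty vector and 5.59 and 4.09 with RUNX1::ERG, and the strand setting of the counting is not given in the sources used here.

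SLC7A1 (CAT1; NCBI gene 6541, minus strand of chromosome 13, 30083551 to 30169825) takes up arginine, lysine and ornithine. It was at 211 and 115 normalized CPM in the empty vector libraries and at 71 and 91.2 with RUNX1::ERG, without overlap. The log2 fold change was -1.01 with a standard error of 0.25 (adjusted p = 0.0496 by edgeR), at the edge of the threshold, and it was -0.51 without empty vector replicate 1 (adjusted p = 0.167 by edgeR). Its relative SLC7A3 (CAT3; NCBI gene 84889, minus strand of chromosome X, 70145429 to 70150975) was close to undetected. It had 1 and 4 counts in the empty vector libraries and 0 in each RUNX1::ERG library, where a count of 0 allows up to 3 counts, or 0.0364 and 0.0419 CPM before scaling. SLC7A3 did not pass the filter and was not compared. This limit covers counting error only.

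SLC1A5 (ASCT2; NCBI gene 6510, minus strand of chromosome 19, 47278140 to 47291851) exchanges neutral amino acids such as glutamine and serine with sodium. It was the most abundant transporter, at 759 and 612 normalized CPM with the empty vector and 457 and 447 with RUNX1::ERG. The groups did not overlap, and the ratio between empty vector replicates was the smallest of the 9. The log2 fold change was -0.6 with a standard error of 0.15 (adjusted p = 0.0488 by edgeR). Leaving out empty vector replicate 1 gave -0.44 (adjusted p = 0.171 by edgeR), and leaving out RUNX1::ERG replicate 2 gave -0.6, not called in the smaller fit (adjusted p = 0.166 by edgeR).

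SLC38A1 (SNAT1; NCBI gene 81539, minus strand of chromosome 12, 46576846 to 46663800) and SLC38A2 (SNAT2; NCBI gene 54407, minus strand of chromosome 12, 46751971 to 46766556) are neighbouring genes that take up glutamine, alanine and other small neutral amino acids with sodium. SLC38A1 was at 404 and 297 normalized CPM in the empty vector libraries and at 200 and 245 with RUNX1::ERG. SLC38A2 was at 491 and 306 with the empty vector and at 232 and 277 with RUNX1::ERG. In each gene both RUNX1::ERG libraries were lower, but neither was called by edgeR. The log2 fold changes were -0.65 for SLC38A1 (95% interval -1.06 to -0.25, adjusted p = 0.0723 by edgeR) and -0.65 for SLC38A2 (95% interval -1.11 to -0.18, adjusted p = 0.125 by edgeR). The DESeq2 Wald test called SLC38A1 (adjusted p = 0.0211). Per kilobase of exon, SLC38A2 was 1.58 to 1.87 times SLC38A1 in every library.

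**Figure D2:**
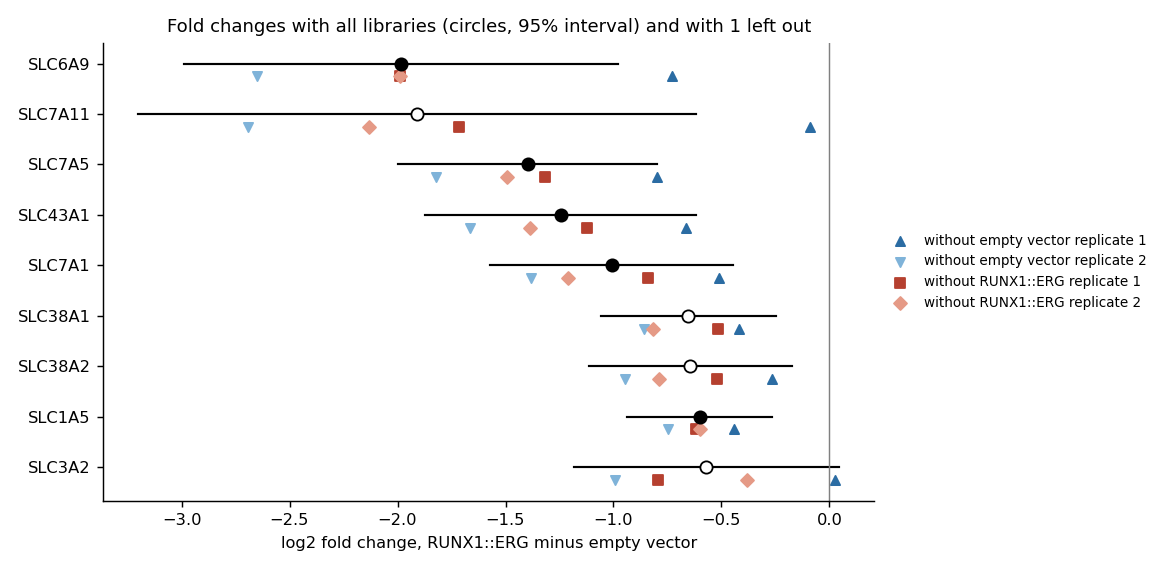
Log2 fold change of the 9 tested transporters, RUNX1::ERG minus empty vector. Circles are the fit with all 4 libraries (filled where the adjusted p was under 0.05) with the 95% interval as a line, and coloured symbols are the fits that each leave out 1 library. For each gene the fit without empty vector replicate 1 lies nearest to 0 or beyond it, at -0.8 for SLC7A5, -0.09 for SLC7A11 and 0.03 for SLC3A2.

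Set against each empty vector library in turn, the mean of the RUNX1::ERG libraries lay below replicate 1 by 40.4% for SLC1A5 to 84.5% for SLC7A11. Against replicate 2 it was lower by 42.4% for SLC7A5, 39.5% for SLC6A9, 36.6% for SLC43A1, 29.6% for SLC7A1, 26.2% for SLC1A5, 25.1% for SLC38A1 and 16.7% for SLC38A2. For SLC7A11 it was 5.79% lower, and SLC3A2 was 1.02 times its level in replicate 2. These single-library values have no replicate on the empty vector side. Summed over the 10 genes, the level was 2896 and 1785 normalized CPM in empty vector replicates 1 and 2 and 1341 and 1400 in RUNX1::ERG replicates 1 and 2.

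Between the RUNX1::ERG libraries, the 9 genes differed by less. Replicate 1, with 2.52 times the normalized ERG level of replicate 2, stood at 0.75 to 0.89 times replicate 2 for SLC7A11, SLC7A1, SLC38A1, SLC38A2, SLC43A1 and SLC7A5. It stood at 1.01 times for SLC6A9, 1.02 times for SLC1A5 and 1.34 times for SLC3A2.

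Levels of different genes were compared per kilobase of exon, using the union of annotated exons, which was not necessarily the annotation behind the counts. SLC1A5 was first in all 4 libraries, at 228 and 184 normalized CPM per kilobase with the empty vector and 137 and 134 with RUNX1::ERG. It made up 40.8% to 51% of the per-kilobase sum of the 10 genes. SLC38A2, SLC7A5, SLC3A2 and SLC38A1 followed, between 20 and 76.8, and their order among themselves changed from library to library. SLC7A5 was above SLC38A1 in each empty vector library, whereas in RUNX1::ERG replicate 2 it stood at 23 and SLC38A1 at 24.4. SLC7A1 was at 9.23 to 27.4, SLC43A1 at 5.39 to 18.7, SLC6A9 at 2.58 to 16.2 and SLC7A11 at 1.43 to 10.7, in this order in every library. SLC7A3 was at or below 0.025.

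**Figure D3:**
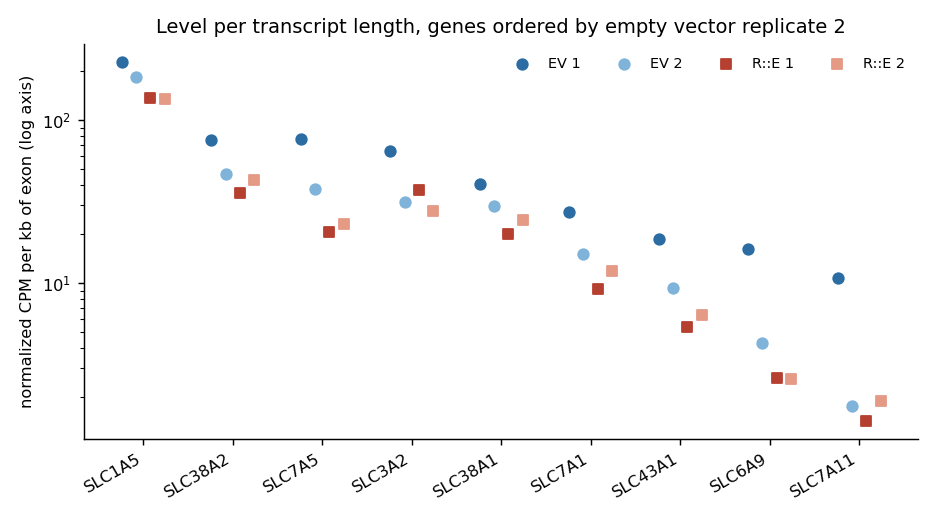
Normalized CPM per kilobase of exon (log axis) of the 9 expressed transporters, ordered by empty vector replicate 2. Circles are empty vector (EV) and squares RUNX1::ERG (R::E) libraries. SLC1A5 is highest in each library, at 134 to 228, and SLC7A11 lowest, at 1.43 to 10.7.

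The windows from 250 bases before to 50 bases after the transcription start were read from RefSeq on GRCh38.p14. They were read for every transporter gene with an entry, whether called or not. There were 14 windows for 8 of the genes, with 1 to 3 per gene, and SLC7A11 and SLC7A3 had no entry. Windows of the same gene are not independent of each other. Both strands were searched for the E-box CACGTG, which MYC and related factors bind, for the C/EBP-ATF element core TGATGNAA, for the ETS letters CCGGAAG and for the RUNX letters TGTGGT. None of these motifs overlapped another in the 8 matches found. The E-box was absent from the windows of the called genes SLC6A9 and SLC7A1. It was in 3 of the 14 windows, against 7.26% of 35116 windows of the same length, in the called genes SLC7A5, SLC43A1 and SLC1A5. The 35116 windows are those of all 27305 genes with an entry, whether expressed in K562 or not. These stretches are shown because the 3 genes were called lower, with the E-box in capitals, 5′ to 3′ on the minus strand. Their places on GRCh37 were found by exact match of the whole window, and the first 2 lie just outside the annotated genes while the third lies in an annotated untranslated exon of SLC1A5.
SLC7A5, chr16:87903212-87903269, E-box from 130 bases before the start: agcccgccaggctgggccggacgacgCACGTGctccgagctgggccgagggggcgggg
SLC43A1, chr11:57283256-57283313, E-box from 112 bases before the start: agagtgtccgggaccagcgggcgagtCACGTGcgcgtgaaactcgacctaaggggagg
SLC1A5, chr19:47290585-47290610, E-box from 50 bases before an alternative start: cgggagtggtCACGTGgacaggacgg

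The C/EBP-ATF core was in 4 of the 14 windows, against 3.62% of all windows. It lay in SLC7A1, SLC38A1, SLC3A2 and SLC1A5, of which SLC7A1 and SLC1A5 were called lower. Its letters are in capitals, and SLC3A2 carries them on the other strand. The SLC7A1 and SLC3A2 matches begin at bases 8 and 38 counted from the start. In SLC38A1 the match crosses the start, from 4 bases before it. Only the SLC1A5 match is upstream, from 97 bases before an alternative start. On GRCh37 the match in SLC7A1 lies in an untranslated exon and that in SLC38A1 within an intron. The match in SLC3A2 lies in a coding exon and that in SLC1A5 in an untranslated exon.
SLC7A1, chr13:30169801-30169828, minus strand: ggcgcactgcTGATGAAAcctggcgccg
SLC38A1, chr12:46660286-46660313, minus strand: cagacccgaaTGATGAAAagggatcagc
SLC3A2, chr11:62649198-62649220, plus strand: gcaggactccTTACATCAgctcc
SLC1A5, chr19:47288151-47288178, minus strand: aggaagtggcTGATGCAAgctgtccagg

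The RUNX letters were in 1 of the 14 windows, in SLC38A1, against 13.1% of all windows, and the ETS letters in none, against 10.3%. SLC6A9 and SLC38A2 held none of the 4 motifs. These matches describe the letters of the windows and were not tested against the fold changes.

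Of 28 further surface transporters, 9 passed the filter, and each of the remaining 19 stayed at 13 counts or fewer per library. SLC6A6, the taurine transporter, was called lower, from 392 and 374 to 255 and 241 normalized CPM (log2 fold change -0.63, standard error 0.14, adjusted p = 0.0346 by edgeR). The empty vector replicates were close to each other here, and without replicate 1 its log2 fold change was -0.6 (adjusted p = 0.0512 by edgeR). It was -0.67 without RUNX1::ERG replicate 1 and -0.6 without replicate 2, close to the value with all libraries, but not called in these smaller fits. SLC1A2, a glutamate transporter, had the largest fitted difference, 1.83, on at most 23 counts in a library, and was not called (adjusted p = 0.208 by edgeR). The median of the 9 was -0.2, with 1 of them at least 2-fold higher in empty vector replicate 1 than in replicate 2.

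Among 31 genes for lysosomal transport and the sensing of amino acids by mTORC1, the kinase complex that couples amino acid supply to growth, 29 were tested and none was called by edgeR. Of these, 4 had an unadjusted p under 0.05, against 18% of all tested genes, and the DESeq2 Wald test called 2 of 29, against 7.51% of all genes with an adjusted p. The median log2 fold change was -0.01. SESN2, a leucine sensor that is also an ATF4 target, was at 236 normalized CPM in empty vector replicate 1 and between 46.8 and 52.9 in the other libraries (log2 fold change -1.52, adjusted p = 0.117 by edgeR). It was at -0.04 without empty vector replicate 1. SESN3, another sestrin, was at 3.65 and 3.64 with the empty vector and at 6 and 6.97 with RUNX1::ERG (log2 fold change 0.83, adjusted p = 0.109 by edgeR).

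Most genes listed for the amino acid response, those that GCN2 and ATF4 act through or on, were also higher in empty vector replicate 1. What raised them was not tested. The list was chosen with earlier results of these data known, so the shares given here describe it and do not test it. Of the 30 genes listed, 28 were tested. At least 2-fold higher in empty vector replicate 1 than in replicate 2 were 19 of the 28, against 7.85% of all tested genes. The median ratio of the 28 was 2.98, against 1.01 over all tested genes. With RUNX1::ERG, 5 of the 28 were called lower and none higher, against 1.15% lower and 3.64% higher among all tested genes. The median log2 fold change was -1.05. The called genes were INHBE, an activin subunit, at -3.13, STC2, a secreted stanniocalcin, at -2.42, the serine synthesis enzymes PSAT1 and PHGDH at -2.23 and -1.94, and the translation repressor EIF4EBP1 at -0.94. CHAC1, which degrades glutathione, was at -3.33 and was not called (adjusted p = 0.0505 by edgeR). It stood at 47.6 normalized CPM in empty vector replicate 1 and between 2.41 and 3.39 in the other libraries. Leaving out empty vector replicate 1 gave -0.42 for CHAC1, -0.53 for INHBE, -0.62 for PHGDH and -0.52 for EIF4EBP1. Without empty vector replicate 1 the median was -0.28, STC2 (-1.17) and PSAT1 (-0.8) were called lower, and GDF15, a secreted stress factor, was called higher. STC2 was at -2.46 without RUNX1::ERG replicate 1 and at -2.39 without replicate 2, and the number of genes of the list called differed between these fits. The DESeq2 Wald test did not call INHBE, PSAT1 or PHGDH. ATF4 itself was at 443 and 252 normalized CPM in the empty vector libraries and at 258 and 234 with RUNX1::ERG, and was not called (adjusted p = 0.287 by edgeR).

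A further list held 26 enzymes of amino acid metabolism and of linked redox steps such as glutathione recycling. Of these, 25 were tested, 2 were called lower and none higher, against 1.15% lower and 3.64% higher among all tested genes. The median log2 fold change was -0.2. GLUL, which makes glutamine from glutamate, was at 1562 and 1151 normalized CPM in the empty vector libraries and at 638 and 725 with RUNX1::ERG (log2 fold change -0.99, adjusted p = 0.00742 by edgeR). CBS, which starts the conversion of homocysteine to cysteine, was at 574 and 397 with the empty vector and at 247 and 218 with RUNX1::ERG (log2 fold change -1.06, adjusted p = 0.00997 by edgeR). Each was also called without empty vector replicate 1, at -0.76 and -0.78, and GLUL lost the call without RUNX1::ERG replicate 1 (adjusted p = 0.0572 by edgeR). CTH, which completes that conversion, was at 77.9 in empty vector replicate 1 and at 10.1 to 10.5 in the other libraries. Its log2 fold change of -2.12 was not called (adjusted p = 0.0918 by edgeR) and was -0.05 without empty vector replicate 1. ASS1, an arginine synthesis enzyme, was at -2.02 (adjusted p = 0.0588 by edgeR), and at -0.87 without empty vector replicate 1.

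The genes whose pattern was nearest to that of SLC6A9, the transporter with the largest fall in the fit with all 4 libraries, were found by the root mean square distance of centred log2 values over the 4 libraries. PHGDH was nearest, at a distance of 0.0436, with 104 and 25.9 normalized CPM in the empty vector libraries and 17.1 and 16.7 in the RUNX1::ERG libraries. LINC00861, ASNS, G0S2 and ULBP1 followed at 0.11 to 0.135. ASNS makes asparagine, as PHGDH starts serine synthesis, and both are in the amino acid response list. ASNS was at 400 and 97.2 normalized CPM in the empty vector libraries and at 69 and 76.4 with RUNX1::ERG. The distance describes 4 libraries and has no test.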

How the data were processed

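Whole transcriptome sequencing of 4 K562 libraries was analysed. The deposited values are raw, unnormalized counts for each NCBI gene number, in a separate file for each library. The paper gives paired-end libraries from messenger RNA and hg19, and the submitters' processing notes list HISAT2 2.2.1 and featureCounts 2.0.1; annotation, strand and pair settings are not given in the sources used here. Between 66.7% and 68.9% of counts from 1 to 10 were even, as when both mates are counted, so counts exceed independent fragments and limits from counts cover counting error only.

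Gene numbers were joined to symbols through RefSeq (92.2% matched). Positions and exon lengths are from GENCODE v44 lifted to GRCh37. In R 4.3.3, edgeR 4.0.16 was run with TMM scaling, filterByExpr (minimum count 10), which left 15394 genes. These entered its quasi-likelihood test, with p-values adjusted by Benjamini-Hochberg and called under 0.05. Standard errors are the log2 fold change divided by the square root of F. DESeq2 1.42.0, other scalings, no filter, halved counts, a replicate block and leaving out each library were alternatives. The procedure was tested on simulated data. Transporters and lists were chosen with earlier results of these data known. Named genes were the transporters, ERG and RUNX1, and in each list the called genes (at most 3 each way where over 6) and the 2 tested genes with the largest fold change, plus the 5 nearest patterns; ATF4, GDF15 and the overlapping or copied genes were added after their values were seen.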

Additional observations from a re-analysis of the deposited data

How the results depend on the processing

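SLC7A5 kept its direction and its call under every alternative run. Of 90 values of single transporters under the alternatives, 61 kept direction and side of the threshold, 15 lost the call, 13 gained it and 1 turned, that of SLC3A2, which ran from -0.99 to 0.03 with a library left out and turned without empty vector replicate 1 (0.0254). The transporters called numbered 1 with library totals alone and 9 without a filter, against 5, and their number also depended on which library was left out. SLC7A5 was the 1 called with library totals, without empty vector replicate 1 or without RUNX1::ERG replicate 1. All genes called numbered 1500 without a filter and 1204 with DESeq2, against 737, and 286 to 1336 with a library left out. The lowest number was without RUNX1::ERG replicate 1. For the lists, the amino acid response had 8 calls with RLE scaling, 1 with library totals, 24 without a filter and 8 with DESeq2, against 5. The enzymes had 7 without a filter and 5 with DESeq2, against 2. The lysosomal and mTORC1 list had 2 in each of these, against 0. Of all genes with an adjusted p, 5.26% were called with RLE scaling, 4.01% with library totals, 7.38% without a filter and 7.51% with DESeq2, against 4.79%. With a library left out the number of calls changed in each list, as did the number over all tested genes. The cause was not tested.

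With the replicate block, 1733 genes were called, which is 11.3% of all tested genes. Among them were 6 of 9 transporters, 13 of 28 amino acid response genes, 4 of 25 enzymes and 2 of 29 lysosomal and mTORC1 genes. Deviations of same-numbered libraries correlated at r = 0.271 over genes, but nothing in the labels ties a number to a batch, and the libraries were left unpaired. With 2 libraries per group and 1 empty vector library apart, p-values measure only the spread between these samples.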
